A study of Mus musculus with 16 samples.

Results

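Messenger RNA of 47 genes for DNA replication and nucleotide synthesis was followed in esophagus from C57BL/6 mice that modelled eosinophilic esophagitis, in which allergic inflammation affects the esophageal lining. The genes were taken by symbol from the 41411 genes of the deposited table, 1 gene identifier each, to cover the steps of copying a genome: origin licensing, helicase activation, the polymerases and primase, the sliding clamp and its loader, single-strand binding, Okazaki fragment maturation, nucleotide supply, chromatin assembly with maintenance methylation, and entry into S phase. The 4 groups were Il13ra1-/- mice given OXA (KO OXA), Il13ra1-/- mice given vehicle (KO vehicle), wild-type mice given OXA (WT OXA) and wild-type mice given vehicle (WT vehicle), with 4 libraries each. OXA is an oxazolone hapten, a small reactive chemical that provokes contact allergy, and Il13ra1 encodes a chain of the type II IL-4 receptor, through which IL-13 signals. The labels name no cell type to which the knockout is limited, and they give no age, dose or time. They also do not state that the libraries of a group came from separate animals, so the p-values measure only the spread between these libraries.

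A cell that commits to division first licenses its replication origins in G1: the origin recognition complex with Cdc6 and Cdt1 loads the ring-shaped MCM2-7 helicase onto DNA. In S phase Cdc45 and the GINS complex join the rings to make the active helicase, primase and polymerases alpha, delta and epsilon copy the strands, and ribonucleotide reductase supplies deoxynucleotides. Many of these genes are transcribed under E2F factors, which cyclin-dependent kinases release from the retinoblastoma protein. In the healthy esophagus dividing cells lie in the basal layer of the epithelium, and thickening of that layer is a feature of eosinophilic esophagitis.

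Of the 47 genes 46 passed a filter on low values, and Cdt1 had no read in any library. Values are the authors' normalized read counts, and all fold changes are log2 differences of value + 1 with their standard error (SE), tested with limma and adjusted by Benjamini-Hochberg over the 16748 genes that passed the filter. Depth recovered from the table was 8.82 to 15.2 M reads (M, mega) in KO OXA, 7.91 to 16.5 M in KO vehicle, 20.2 to 27.3 M in WT OXA and 5.61 to 9.55 M in WT vehicle, so the deepest libraries were those of WT OXA. Il13ra1 itself averaged 99.1 ± 56.9 in KO OXA, 50.1 ± 14.2 in KO vehicle, 721 ± 123 in WT OXA and 191 ± 39.8 in WT vehicle (SD, n = 4 each), with no overlap between KO and WT libraries under either treatment. In bulk tissue, fewer cells of a type and less RNA per cell cannot be told apart.

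In wild-type esophagus OXA raised most of the replication genes. Of 46 tested, 31 rose and 1 fell, while 18% of all genes tested rose and 16% fell. The median fold change of the 46 was 1.22, against 0.10 over all genes tested, and the values ran from -0.54 for Gins4 to 3.62 for Rrm2. In 29 genes every WT OXA library lay above every WT vehicle library and in 1 every one lay below, where 18.5% and 15.7% of all genes did so. With every library scaled to the same total in place of the authors' size factors, the median of all genes moved by 0.31 and 38 of the 46 rose with none falling. Under that scaling 77.3% of all genes called in WT were higher, against 53.0% with the authors' factors.

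Without Il13ra1 the same treatment moved few genes past the threshold, among the replication genes and among all genes tested alike. In KO esophagus 1 of the 46 rose and 1 fell, beside 1.81% and 0.0896% of all genes tested. For genes that rose, this is near the share of all genes. The median fold change of the 46 was 0.29, against -0.01 over all genes, and 38 of the 46 were above 0. In 10 genes every KO OXA library lay above every KO vehicle library, and in 1 every one lay below, where 3.93% and 2.94% of all genes did so. These 10 were Mcm3, Mcm5, Mcm6, Orc6, Gins1, Gins2, Rrm1, Tyms, Uhrf1 and Ccne1, of which only Gins1 passed the test across all genes. With equal library totals the median of all genes moved by -0.12 in KO. None of the 46 rose there and 1 fell, beside 225 and 19 of all genes. Mcm3, Tyms and Uhrf1 then lost their separation, which left 7 genes apart.

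The difference between the genotypes was itself tested as an interaction, the OXA effect in KO minus that in WT. It passed below 0 for 15 genes and above 0 for 1, beside 7.67% and 10.1% of all genes, with a median of -0.84 against -0.10 over all genes. Equal library totals made 27 of the 46 lower and none higher, and shifted the median of all genes by -0.42. Over all genes they gave 3459 lower and 883 higher, against 1284 and 1698 with the authors' factors. Above 0 were thus 20.3% of all interaction calls, against 56.9%. Under OXA, 24 genes were lower and 2 higher in KO than in WT, beside 12.9% and 14.6% of all genes, with a median of -0.85 against -0.05 over all genes. Every KO OXA library lay below every WT OXA library in 25 genes and above in 2, where 15.3% and 14.0% of all genes did so. That comparison had 53.1% of all its calls above 0, or 19.9% with equal library totals, which shifted its median by -0.39.

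Under vehicle none of the 46 passed the test between the genotypes in either direction with limma, beside 0.0358% of all genes higher and 0.0239% lower in KO. At an unadjusted p under 0.05 there were 6 of the 46, beside 9.13% of all genes, and edgeR and DESeq2 also called 0. Every KO vehicle library lay above every WT vehicle library for Orc1, Prim2 and Pole2 and below for Rpa2 and Rpa3, that is for 3 and 2 genes, where 2.66% and 2.69% of all genes did so. The median SE of these differences was 0.27 on the log2 scale. Over all genes 60.0% of the 10 calls were above 0, and with equal library totals 80.0% of 5.

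**Figure D1:**
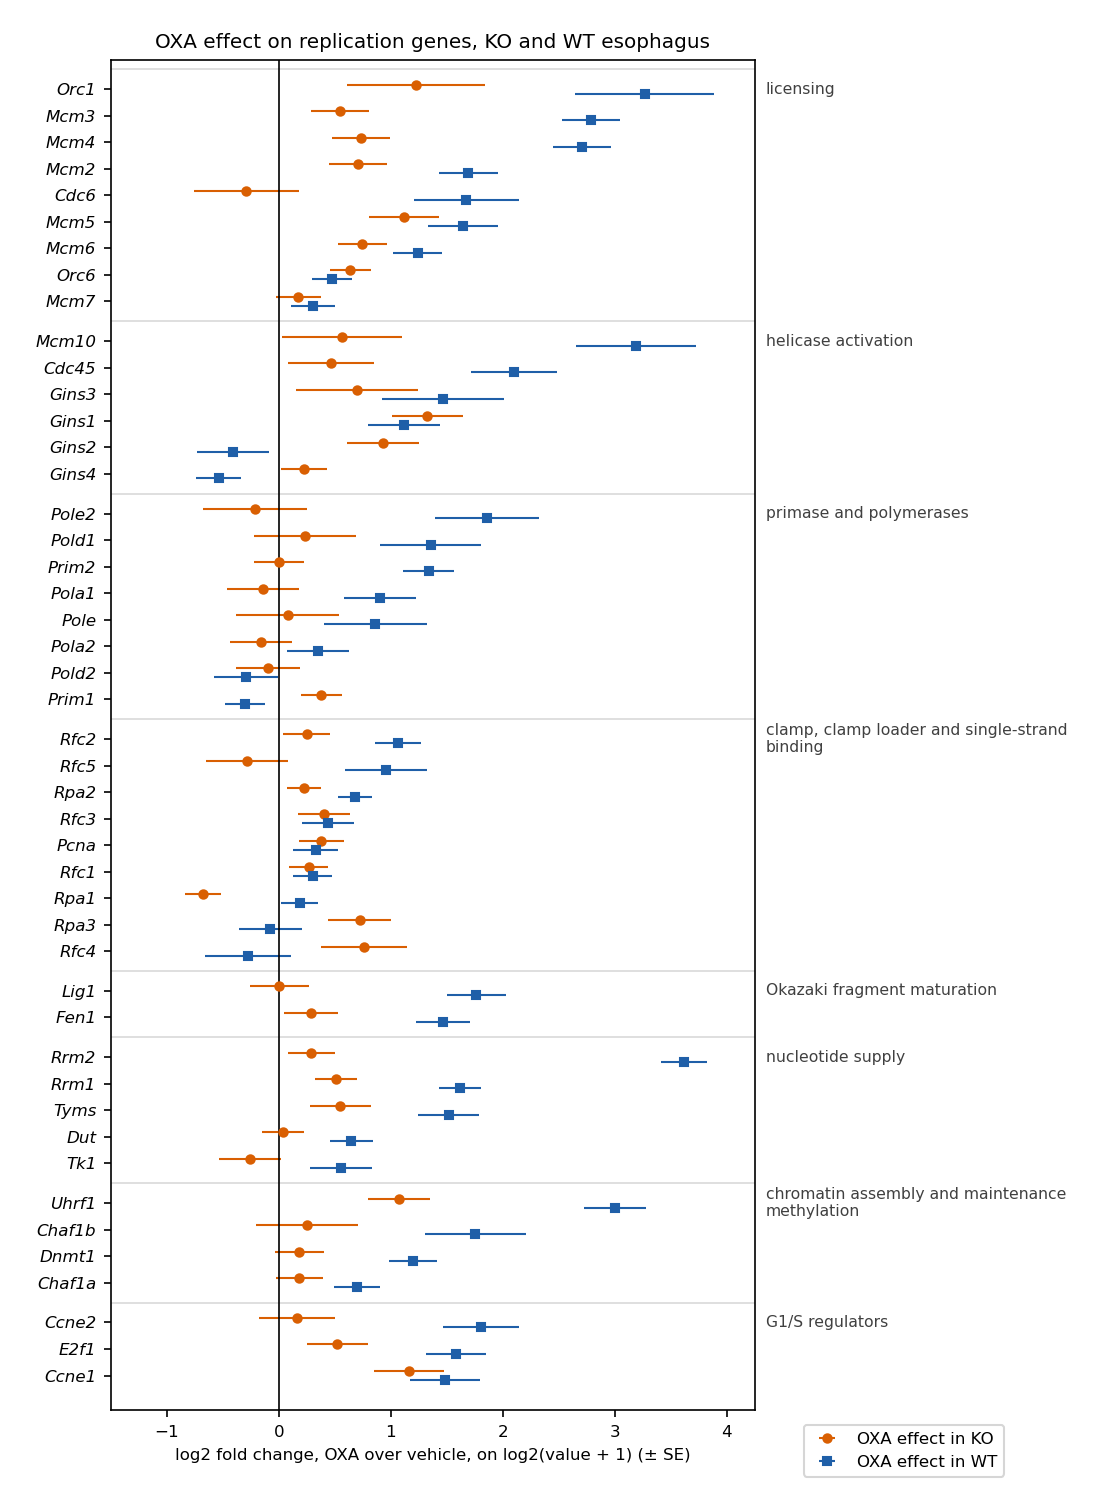
OXA effect on the 46 tested replication genes by role, as the log2 fold change of OXA over vehicle on log2(value + 1) with its standard error, from 4 libraries a group; circles are KO and squares are WT. The WT squares lie to the right of the KO circles for most genes, from 3.62 for Rrm2 in WT downward, while Gins1, Gins2, Gins4, Orc6, Pcna, Pold2, Prim1, Rpa3 and Rfc4 have the KO circle to the right.

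Nucleotide supply held the gene with the largest fold change. Rrm2 encodes the small, radical-bearing subunit of ribonucleotide reductase, the enzyme that makes deoxynucleotides from ribonucleotides; the gene lies at chr12:24708241-24714146 (GRCm38). Its normalized counts were 431, 650.1, 384 and 340.4 in KO OXA, 453, 349.5, 352 and 294 in KO vehicle, 3539, 3496, 4319 and 4438 in WT OXA and 439, 354, 235 and 281 in WT vehicle. The WT OXA libraries stood alone, and the other 12 libraries overlapped. Rrm2 did not pass in KO (0.29 ± 0.21, limma adjusted p = 0.572), rose in WT (3.62 ± 0.21, limma adjusted p = 2.1e-10), and the difference of the effects was -3.33 ± 0.29 (limma adjusted p = 2.25e-07).

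Rrm1, the large subunit that carries the catalytic and allosteric sites, had 229, 232, 199 and 193 in KO OXA and 159.8, 136, 134 and 169 in KO vehicle. It had 335, 366, 457 and 554 in WT OXA and 167, 108, 148 and 129 in WT vehicle. The OXA libraries lay above the vehicle libraries in both genotypes, by 0.51 ± 0.19 in KO (limma adjusted p = 0.212) and by 1.62 ± 0.19 in WT (limma adjusted p = 2.78e-06), with an interaction of -1.11 ± 0.27 (limma adjusted p = 0.00702). The log2 ratio of Rrm2 to Rrm1 was 0.81 to 1.48 in KO OXA libraries, 0.79 to 1.5 in KO vehicle, 3.0 to 3.40 in WT OXA and 0.67 to 1.70 in WT vehicle. The ratio was higher in all 4 WT OXA libraries than in the other 12.

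Tyms, thymidylate synthase, which methylates dUMP to dTMP, rose in WT by 1.52 ± 0.27 (limma adjusted p = 0.000285). Dut, the dUTPase that keeps uracil out of DNA, rose there by 0.65 ± 0.19 (limma adjusted p = 0.013). Neither passed in KO (0.55 ± 0.27 and 0.04 ± 0.19, limma adjusted p = 0.375 and 0.956). Tk1, the salvage thymidine kinase, had 101, 66.7, 64.4 and 74.1 in KO OXA, 116, 92.3, 85.2 and 72.2 in KO vehicle, 107, 121, 162 and 227 in WT OXA and 89.5, 64.9, 126 and 138 in WT vehicle, and its libraries overlapped within each genotype. It passed neither in KO (-0.26 ± 0.28, limma adjusted p = 0.733) nor in WT (0.55 ± 0.28, limma adjusted p = 0.134). All 5 nucleotide supply genes were lower in KO than in WT under OXA, by -3.16 for Rrm2 and by -0.84 to -0.98 for the other 4. The call was lost in 7 of 27 alternative settings for Tyms and in 1 for Tk1, and in none for Rrm1, Rrm2 and Dut.

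Of the 9 licensing genes tested, 8 rose in WT and none passed in KO. Mcm3, a subunit of the MCM2-7 ring at chr1:20802968-20820312, had 49.5, 70.2, 52.0 and 47.3 in KO OXA, 29.2, 31.9, 44.1 and 44.3 in KO vehicle, 184, 249.9, 244 and 250.03 in WT OXA and 42.7, 34.0, 34.7 and 22.3 in WT vehicle. Each OXA group lay above its vehicle group, and WT OXA lay far above all others: the fold change was 0.54 ± 0.26 in KO (limma adjusted p = 0.352) and 2.79 ± 0.26 in WT (limma adjusted p = 1.78e-07), with an interaction of -2.24 ± 0.37 (limma adjusted p = 0.000399). Mcm4, another subunit of the ring, rose in WT by 2.71 ± 0.26 (limma adjusted p = 2.24e-07). In KO it had 0.73 ± 0.26 (limma adjusted p = 0.188), with 179.7, 118, 116 and 78.8 in KO OXA and 90.7, 56.1, 85.2 and 57.5 in KO vehicle, which overlapped. Its interaction was -1.97 ± 0.37 (limma adjusted p = 0.00106).

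The 6 ring subunits, which assemble 1 to 1, differed in fold change. In WT, Mcm2 rose by 1.69 ± 0.26, Mcm5 by 1.64 ± 0.31 and Mcm6 by 1.24 ± 0.22 (limma adjusted p = 5.96e-05, 0.000475 and 0.000239). Mcm7 did not pass: it had 605, 423, 370.1 and 412 in KO OXA, 474, 302, 436 and 386 in KO vehicle, 439, 580.4, 492 and 636 in WT OXA and 541, 444, 308 and 461 in WT vehicle, and OXA and vehicle libraries overlapped in both genotypes. Its fold change was 0.17 ± 0.20 in KO (limma adjusted p = 0.749) and 0.31 ± 0.20 in WT (limma adjusted p = 0.251), or 0.63 in WT with equal library totals, where it passed (limma adjusted p = 0.0118). The log2 ratio of Mcm3 to Mcm7 was -3.58 to -2.57 in KO OXA libraries, -3.97 to -3.09 in KO vehicle, -1.34 to -1.01 in WT OXA and -4.31 to -3.12 in WT vehicle. In WT the ratios did not overlap between treatments, and in KO they did; the pair was taken after the values were seen, as the subunits with the highest and lowest fold change in WT, so this is a description. Mcm7 overlaps Cops6 and Ap4m1 on the opposite strand, and whether the authors' counting used strand was not given in the sources used here.

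In KO, 3 licensing genes had an adjusted p under 0.1 without passing. Mcm5 had 1.12 ± 0.31 (limma adjusted p = 0.0777), Mcm6 0.75 ± 0.22 (limma adjusted p = 0.0978) and Orc6, the smallest subunit of the origin recognition complex, 0.64 ± 0.18 (limma adjusted p = 0.0825). For Mcm5 and Mcm6 the interaction did not pass (-0.52 ± 0.44 and -0.50 ± 0.31, limma adjusted p = 0.451 and 0.288). The normalized counts of Mcm2 to Mcm7 summed to 938 to 1381 in KO OXA, 614 to 936 in KO vehicle, 1705 to 2484 in WT OXA and 789.9 to 961 in WT vehicle, so the lowest KO OXA library was just above the highest KO vehicle library. As RPM (reads per M reads of a library, so that all totals are equal) the KO groups overlapped, at 67.6 to 87.6 in KO OXA and 50.1 to 74.8 in KO vehicle.

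The factors that load the ring differed in level. Orc1, the ATPase subunit of the origin recognition complex, had 5.50, 17.9, 7.43 and 10.2 in KO OXA, 1.95, 2.59, 7.61 and 3.28 in KO vehicle, 9.80, 6.67, 14.9 and 17.3 in WT OXA and 0, 0, 1.82 and 0 in WT vehicle. It held 165 reads over all 16 libraries, and 3 WT vehicle libraries were at 0. Its fitted rise in WT (3.27 ± 0.62, limma adjusted p = 0.000476) depends on the value added before the log and ran from 1.62 to 4.55 over the alternative settings. Cdc6, the loader ATPase, did not pass in KO (-0.29 ± 0.47, limma adjusted p = 0.833) and rose in WT (1.67 ± 0.47, limma adjusted p = 0.00956). Its interaction of -1.97 ± 0.66 (limma adjusted p = 0.046) lost the threshold in 17 of 26 alternative settings. Orc6 rose in WT by 0.47 ± 0.18 (limma adjusted p = 0.0498), a call lost in 18 of 27. Cdt1, the other loading factor, had no read in any library. It shares its strand and position with Gm20388, to which 12136 reads were assigned over all libraries. Gm20388 also overlaps Gins2, so where along it those reads lie is not known. How reads of overlapping genes were counted was not given in the sources used here. Whether the overlap left Cdt1 without reads was not tested, and its level could not be read.

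Promoter sequences are shown for 4 of these genes because E2F words stand at different places in them, or at none. The windows run from 250 bases before to 50 bases after the gene start, from RefSeq on GRCm38.p6, written 5′ to 3′ on the gene's strand in lower case, with E2F words in capitals. The words searched on both strands were TTTCCCGC, TTTCGCGC, TTTGCCGC and TTTGGCGC, which can overlap one another. Mcm3 lies at chr1:20820263-20820562 on the minus strand, Mcm6 at chr1:128359656-128359955 on the minus strand, Cdc6 at chr11:98907901-98908200 on the plus strand and Rrm2 at chr12:24708004-24708303 on the plus strand.
Mcm3: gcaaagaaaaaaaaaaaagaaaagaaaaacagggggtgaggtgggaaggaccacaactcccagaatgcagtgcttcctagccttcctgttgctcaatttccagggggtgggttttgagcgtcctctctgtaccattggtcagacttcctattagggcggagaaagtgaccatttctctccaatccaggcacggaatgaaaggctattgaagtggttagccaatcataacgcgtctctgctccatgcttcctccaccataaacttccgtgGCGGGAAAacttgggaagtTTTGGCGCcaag
Mcm6: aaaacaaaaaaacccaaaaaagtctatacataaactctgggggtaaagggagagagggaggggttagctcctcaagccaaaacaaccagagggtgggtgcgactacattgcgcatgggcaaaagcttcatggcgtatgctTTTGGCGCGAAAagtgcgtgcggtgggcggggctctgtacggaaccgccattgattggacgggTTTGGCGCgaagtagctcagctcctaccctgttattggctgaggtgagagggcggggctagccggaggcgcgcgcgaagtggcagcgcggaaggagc
Cdc6: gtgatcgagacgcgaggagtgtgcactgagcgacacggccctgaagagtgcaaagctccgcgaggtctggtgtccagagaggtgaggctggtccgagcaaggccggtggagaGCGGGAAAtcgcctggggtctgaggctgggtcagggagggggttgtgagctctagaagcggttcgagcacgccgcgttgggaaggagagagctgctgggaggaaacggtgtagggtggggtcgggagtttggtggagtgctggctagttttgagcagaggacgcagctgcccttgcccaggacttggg
Rrm2: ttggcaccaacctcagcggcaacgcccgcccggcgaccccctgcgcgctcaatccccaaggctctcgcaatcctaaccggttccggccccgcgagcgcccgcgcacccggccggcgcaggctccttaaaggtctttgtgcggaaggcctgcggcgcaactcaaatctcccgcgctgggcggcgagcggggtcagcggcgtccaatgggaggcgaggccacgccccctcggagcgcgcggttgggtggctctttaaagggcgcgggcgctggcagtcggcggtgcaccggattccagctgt

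The Mcm3 window held E2F words at 19 and 38 bases after the start. The Mcm6 window held a run of 12 bases that starts 110 bases before the start, made of 2 overlapping words, and another word 47 bases before. The Cdc6 window held 1 word, 138 bases before the RefSeq start. The deposited position of Cdc6 starts earlier, at chr11:98907801, so that whole window lies inside the gene as placed there. The windows of E2f1 and Dut also lie inside their genes as deposited, and they held none of these words. The shares below thus cover the RefSeq windows only. The Rrm2 window held none of these words. A RefSeq window was found for 39 of the 47 genes. An E2F word stood in a window of 15 of the 39 (38.5%), beside 704 of the 27025 genes with a window (2.60%). Among the genes that rose in WT it stood in 12 of 26 (46.2%), and among the others in 3 of 13 (23.1%). These 3 were Mcm7, Rfc3 and Cdt1, of which Cdt1 had no read and no test. The shares rest on few genes, and their difference was not tested. CCAAT was present in 24 of the 39 (61.5%) beside 41.1% of all genes, and GGGCGG in 31 (79.5%) beside 38.2%. A match is a run of letters, and no binding was measured here.

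Helicase activation split within a complex. Mcm10, which helps the loaded helicase start and bridges it to polymerase alpha, had 7.33, 9.53, 8.66 and 13.4 in KO OXA, 6.82, 6.04, 9.89 and 3.28 in KO vehicle, 77.7, 45.7, 62.4 and 103 in WT OXA and 8.26, 1.55, 18.2 and 6.69 in WT vehicle. The 4 WT OXA libraries were above all 12 others, with 0.56 ± 0.54 in KO (limma adjusted p = 0.688), 3.19 ± 0.54 in WT (limma adjusted p = 0.000149) and an interaction of -2.63 ± 0.76 (limma adjusted p = 0.021). Cdc45, which joins MCM2-7 and GINS in the active helicase, did not pass in KO (0.46 ± 0.38, limma adjusted p = 0.633) and rose in WT (2.1 ± 0.38, limma adjusted p = 0.000318). Its interaction of -1.64 ± 0.54 (limma adjusted p = 0.0412) was lost in 14 of 26 settings.

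The 4 GINS subunits, Gins1 to Gins4, form 1 tetramer. Gins1 was the single replication gene that rose in KO: it had 147, 207, 113 and 86.7 in KO OXA and 64.3, 70.8, 41.9 and 37.8 in KO vehicle, 149, 145, 165 and 232 in WT OXA and 85.4, 122, 43.8 and 80.2 in WT vehicle. OXA libraries lay above vehicle libraries in both genotypes, by 1.32 ± 0.32 in KO (limma adjusted p = 0.0329) and 1.11 ± 0.32 in WT (limma adjusted p = 0.0108), and the interaction was 0.21 ± 0.45 (limma adjusted p = 0.792). The KO call was lost in 10 of 27 alternative settings, among them equal library totals. Gins3 rose in WT by 1.46 ± 0.54 (limma adjusted p = 0.0441), a call lost in 14 of 27.

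Gins2 had fold changes of opposite sign in the 2 genotypes. Its normalized counts were 105, 73.8, 106 and 63.8 in KO OXA, 49.7, 34.5, 50.2 and 44.3 in KO vehicle, 35.2, 35.9, 26.7 and 54.0 in WT OXA and 82.6, 43.3, 29.2 and 55.7 in WT vehicle. The KO OXA libraries were above the KO vehicle and the WT OXA libraries, and the WT groups overlapped. The fold change was 0.93 ± 0.32 in KO (limma adjusted p = 0.183) and -0.41 ± 0.32 in WT (limma adjusted p = 0.353), with an interaction of 1.34 ± 0.46 (limma adjusted p = 0.0486) that lost the threshold in 13 of 26 settings, equal library totals among them. Under OXA, Gins2 was higher in KO by 1.19 ± 0.32 (limma adjusted p = 0.00936). Gins2 lies on the strand opposite Gm20388, the gene that also covers Cdt1.

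Gins4 was the single gene of the 46 that fell in WT. It had 394, 264, 227 and 241 in KO OXA, 203, 224, 213 and 317 in KO vehicle, 192, 247, 191 and 261 in WT OXA and 275, 279.7, 376 and 365 in WT vehicle. The WT OXA libraries lay below the WT vehicle libraries and the KO groups overlapped, with 0.22 ± 0.20 in KO (limma adjusted p = 0.671) and -0.54 ± 0.20 in WT (limma adjusted p = 0.0464). That fall was lost in 13 of 27 settings, and with equal library totals it was -0.22.

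**Figure D2:**
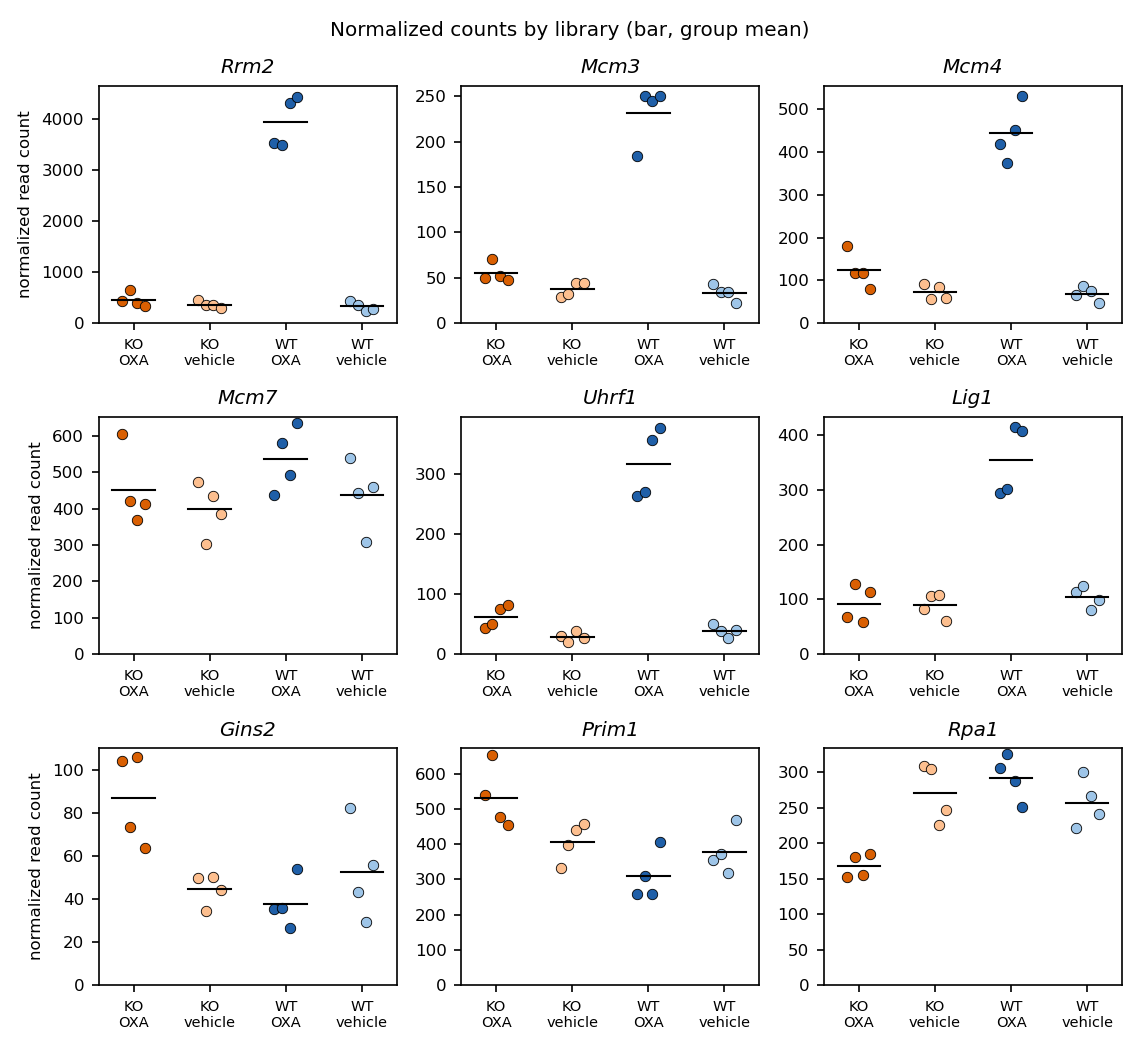
Normalized read counts of 9 replication genes in each of the 16 libraries, with a bar at the group mean (n = 4). Rrm2, Mcm3, Mcm4, Uhrf1 and Lig1 have 4 WT OXA libraries above all others, Mcm7 overlaps between treatments, Gins2 and Prim1 are above their WT OXA levels in KO OXA, and Rpa1 is lowest in KO OXA.

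Among the 8 primase and polymerase genes 4 rose in WT, none passed in KO, and 2 had an interaction below 0. Prim2, the primase subunit that hands the RNA primer to polymerase alpha, had 84.3, 123, 110.2 and 66.2 in KO OXA, 106, 96.7, 83.7 and 87.0 in KO vehicle, 178, 143, 177 and 177 in WT OXA and 52.3, 64.9, 69.3 and 80.2 in WT vehicle. OXA and vehicle libraries were apart in WT and overlapped in KO. Every KO library was below the WT libraries under OXA and above them under vehicle, where the difference did not pass (0.49 ± 0.22, limma adjusted p = 0.535). Prim2 had a fold change of 0.00 ± 0.22 in KO (limma adjusted p = 0.996), 1.34 ± 0.22 in WT (limma adjusted p = 0.000145) and an interaction of -1.33 ± 0.32 (limma adjusted p = 0.00652). Its partner Prim1, the catalytic subunit that makes the primer, had 539, 654, 477 and 455 in KO OXA, 331, 399, 439.8 and 458 in KO vehicle, 259.9, 309, 257 and 407 in WT OXA and 354, 372, 317 and 468 in WT vehicle. Both treatment comparisons overlapped (0.38 ± 0.18 in KO and -0.30 ± 0.18 in WT, limma adjusted p = 0.347 and 0.206). Under OXA every KO library was above every WT library, by 0.79 ± 0.18 (limma adjusted p = 0.00247), or by 0.38 with equal library totals (limma adjusted p = 0.111), where the call ended.

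Pole2, the second subunit of the leading-strand polymerase epsilon, rose in WT by 1.86 ± 0.46 (limma adjusted p = 0.00433). Its interaction of -2.07 ± 0.66 (limma adjusted p = 0.0344) was lost in 12 of 26 settings, on 426 reads in all. Pola1 and Pold1, the catalytic subunits of polymerases alpha and delta, rose in WT by 0.90 ± 0.32 and 1.35 ± 0.45 (limma adjusted p = 0.0366 and 0.0267), each lost in 6 of 27 settings. Pole, Pola2 and Pold2 passed in neither genotype. Pold2, an accessory subunit of polymerase delta, had 67.8, 60.7, 59.4 and 103 in KO OXA, 62.4, 87.2, 82.2 and 73.9 in KO vehicle, 69.7, 84.2, 49.4 and 93.4 in WT OXA and 62.0, 91.2, 76.6 and 143 in WT vehicle, which overlapped throughout.

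The clamp, the clamp loader and the single-strand binding proteins had the lowest median fold change in WT of the 8 roles. Of these 9 genes 2 rose in WT, and their median was 0.27 in KO and 0.33 in WT. Pcna, the sliding clamp that holds polymerases on DNA and a common proliferation marker, had 191, 195, 165 and 125 in KO OXA, 138, 103, 116 and 161 in KO vehicle, 149, 186, 215 and 219 in WT OXA and 146, 159, 171 and 131 in WT vehicle. The groups overlapped within both genotypes, with 0.38 ± 0.20 in KO (limma adjusted p = 0.417) and 0.33 ± 0.20 in WT (limma adjusted p = 0.226). With equal library totals Pcna passed in WT, at 0.65 (limma adjusted p = 0.0129), as did Rfc1 (0.62, limma adjusted p = 0.0117) and Rpa1 (0.51, limma adjusted p = 0.0443). Its pseudogene Pcna-ps2 held 3 reads, so little was assigned to that copy.

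Rfc2, a small subunit of the clamp loader, rose in WT by 1.07 ± 0.21 (limma adjusted p = 0.00058) and not in KO (0.25 ± 0.21, limma adjusted p = 0.641). Rfc1, the large loader subunit, had 0.27 ± 0.18 in KO (limma adjusted p = 0.534) and 0.30 ± 0.18 in WT (limma adjusted p = 0.197). Rfc3, Rfc4 and Rfc5 did not pass in either genotype, and Rfc5 lay at the threshold in WT (0.95 ± 0.37, limma adjusted p = 0.0507). The log2 ratio of Rfc2 to Rfc4 was 0.78 to 2.35 in KO OXA, 1.70 to 2.83 in KO vehicle, 3.11 to 4.11 in WT OXA and 1.33 to 2.81 in WT vehicle libraries. This pair too was the highest and lowest of its complex in WT, taken after the values were seen. Over 10 complexes compared in that way, the ratios of WT OXA and WT vehicle were apart in 6 and overlapped in 4 (GINS, polymerase alpha, polymerase epsilon and RPA), and those of KO OXA and KO vehicle overlapped in all 10. The pick by WT values favours separation in WT and not in KO, so these counts do not compare the genotypes. Rfc4 shares its locus with Eif4a2 on the other strand.

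The RPA trimer coats single-stranded DNA. Rpa1, its large DNA-binding subunit at chr11:75298166-75348324, had 152, 181, 155 and 185 in KO OXA, 308, 305, 225 and 246 in KO vehicle, 306, 325, 287 and 251 in WT OXA and 222, 299.8, 266 and 241 in WT vehicle. All 4 KO OXA libraries were below the other 12. Rpa1 was the single replication gene that fell in KO (-0.68 ± 0.16, limma adjusted p = 0.0339), a call lost in 10 of 27 settings, and it did not pass in WT (0.19 ± 0.16, limma adjusted p = 0.412). Its interaction was -0.86 ± 0.23 (limma adjusted p = 0.0142), and under OXA it was lower in KO by -0.79 ± 0.16 (limma adjusted p = 0.00117).

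Rpa2, the subunit that is phosphorylated under replication stress, rose in WT by 0.68 ± 0.15 (limma adjusted p = 0.00204) and had 0.22 ± 0.15 in KO (limma adjusted p = 0.549). Rpa3, the smallest subunit, had 123, 88.1, 86.6 and 44.9 in KO OXA, 41.9, 52.6, 47.9 and 52.5 in KO vehicle, 57.3, 57.0, 62.4 and 88.6 in WT OXA and 66.1, 85.0, 62.0 and 64.6 in WT vehicle. It passed in neither genotype (0.72 ± 0.28 in KO and -0.08 ± 0.28 in WT, limma adjusted p = 0.243 and 0.858).

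Both Okazaki fragment genes rose in WT and had an interaction below 0. Lig1, the ligase that seals Okazaki fragments, had 67.8, 127, 58.2 and 114 in KO OXA, 81.9, 107, 107 and 60.7 in KO vehicle, 295, 302, 416 and 409 in WT OXA and 114, 124, 80.3 and 98.1 in WT vehicle. Only WT OXA stood apart: the fold change was 0.00 ± 0.26 in KO (limma adjusted p = 0.996) and 1.76 ± 0.26 in WT (limma adjusted p = 4.8e-05), and the interaction was -1.76 ± 0.37 (limma adjusted p = 0.00318). Fen1, the flap nuclease that trims the RNA primer, had 128, 156, 99.0 and 91.4 in KO OXA, 124, 87.2, 88.3 and 85.3 in KO vehicle, 300.5, 336, 361 and 518 in WT OXA and 114, 107, 129.5 and 201 in WT vehicle. The WT groups were apart and the KO groups overlapped. Fen1 had 0.29 ± 0.24 in KO (limma adjusted p = 0.641), 1.47 ± 0.24 in WT (limma adjusted p = 0.000115) and an interaction of -1.18 ± 0.34 (limma adjusted p = 0.0207).

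All 4 genes of chromatin assembly and maintenance methylation rose in WT. Uhrf1, which reads hemimethylated DNA behind the fork and recruits Dnmt1, had 44.0, 50.01, 74.3 and 81.2 in KO OXA, 30.2, 20.7, 38.0 and 26.3 in KO vehicle, 263, 270.4, 357 and 377 in WT OXA and 49.6, 38.6, 27.4 and 40.1 in WT vehicle. OXA libraries were above vehicle libraries in both genotypes, by 1.07 ± 0.28 in KO (limma adjusted p = 0.0505) and 3.0 ± 0.28 in WT (limma adjusted p = 1.51e-07), with an interaction of -1.93 ± 0.39 (limma adjusted p = 0.00229). Dnmt1, the methyltransferase that copies CpG methylation to the new strand, had 209, 202, 157 and 239.5 in KO OXA, 289, 168, 157 and 126 in KO vehicle, 442, 572, 578 and 703 in WT OXA and 256, 232, 224 and 276 in WT vehicle. The WT groups were apart and the KO groups overlapped. Dnmt1 had 0.18 ± 0.22 in KO (limma adjusted p = 0.765), 1.20 ± 0.22 in WT (limma adjusted p = 0.00032) and an interaction of -1.02 ± 0.31 (limma adjusted p = 0.0273).

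Chaf1a and Chaf1b are subunits of CAF-1, which deposits histones on new DNA. Chaf1a rose in WT by 0.70 ± 0.21 (limma adjusted p = 0.0144) and had 0.18 ± 0.21 in KO (limma adjusted p = 0.753). Chaf1b rose in WT by 1.75 ± 0.45 (limma adjusted p = 0.00548) and had 0.25 ± 0.45 in KO (limma adjusted p = 0.855). Neither interaction passed (limma adjusted p = 0.242 and 0.112).

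The 3 regulators of S phase entry also rose in WT. E2f1, the activating E2F factor, had 97.2, 138, 205 and 118 in KO OXA, 91.6, 93.2, 80.7 and 110.0 in KO vehicle, 268, 258, 255 and 305 in WT OXA and 116, 54.1, 73.0 and 143 in WT vehicle. The WT groups were apart and the KO groups overlapped. E2f1 had 0.52 ± 0.27 in KO (limma adjusted p = 0.401), 1.58 ± 0.27 in WT (limma adjusted p = 0.000183) and an interaction of -1.06 ± 0.38 that did not pass (limma adjusted p = 0.062). Ccne1 and Ccne2 are the E-type cyclins, which activate Cdk2. Ccne1 had 95.3, 102, 78.0 and 57.5 in KO OXA, 51.7, 32.8, 35.0 and 27.9 in KO vehicle, 135, 124, 178 and 224 in WT OXA and 86.7, 32.5, 52.9 and 69.1 in WT vehicle, apart in both genotypes. Its fold change was 1.16 ± 0.31 in KO (limma adjusted p = 0.0628) and 1.49 ± 0.31 in WT (limma adjusted p = 0.0011), with an interaction of -0.33 ± 0.44 (limma adjusted p = 0.655). Ccne2 had 25.7, 39.3, 19.8 and 27.6 in KO OXA, 13.7, 25.9, 28.1 and 34.5 in KO vehicle, 47.5, 54.9, 71.4 and 69.1 in WT OXA and 16.5, 15.4, 18.2 and 15.6 in WT vehicle, apart in WT alone. Its fold change was 0.16 ± 0.34 in KO (limma adjusted p = 0.881) and 1.81 ± 0.34 in WT (limma adjusted p = 0.00043), with an interaction of -1.64 ± 0.48 (limma adjusted p = 0.0224).

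**Figure D3:**
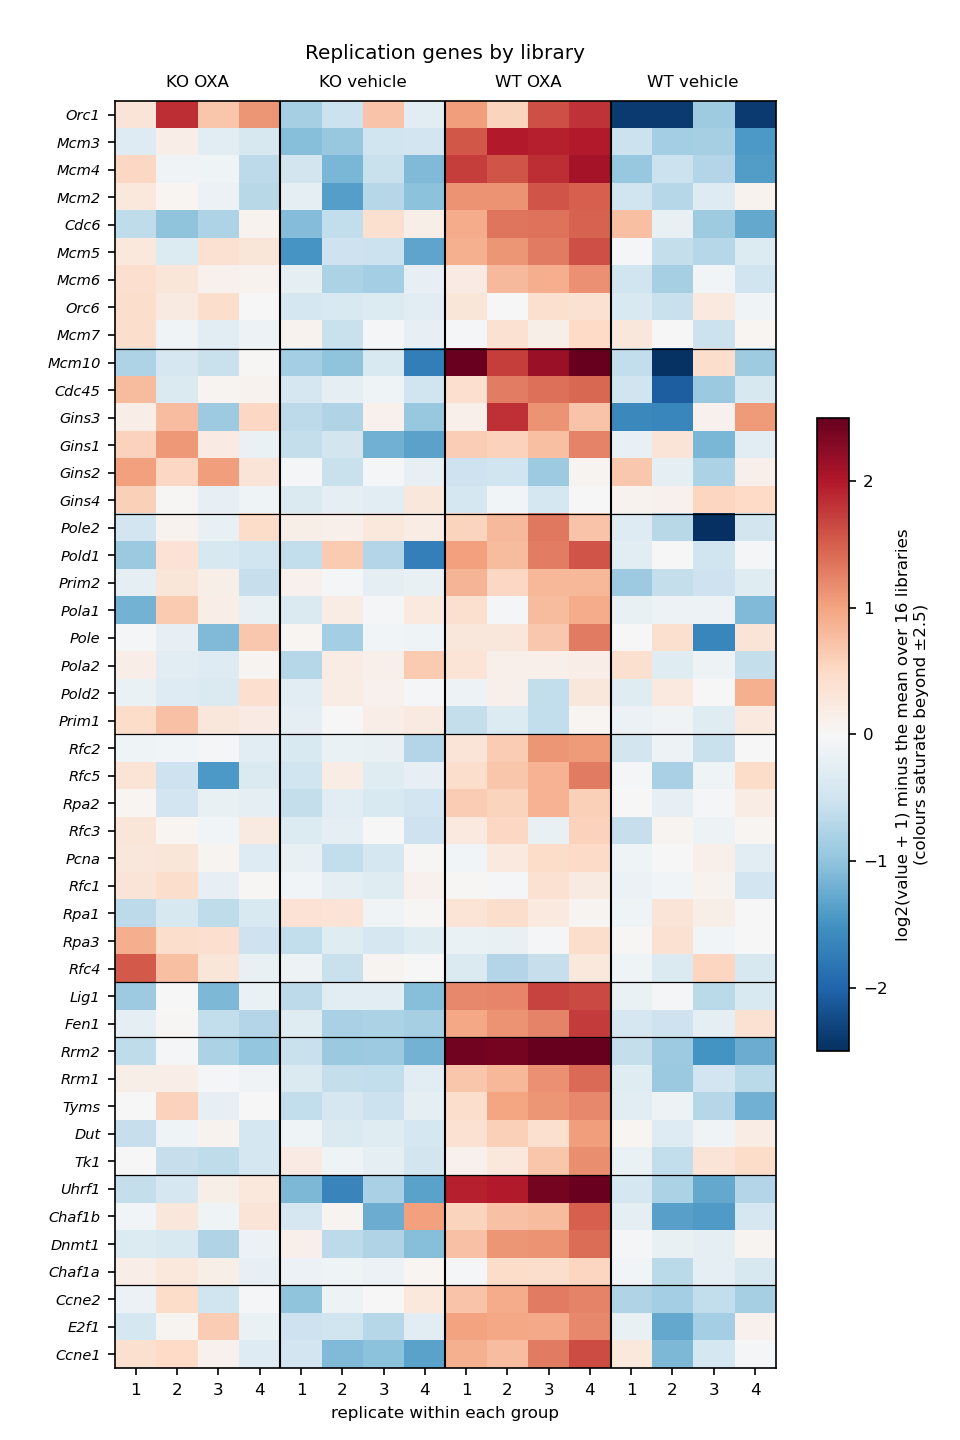
The 46 tested replication genes (rows, by role) in the 16 libraries (columns, 4 a group), coloured by log2(value + 1) minus the gene's mean over all libraries. The WT OXA columns are red in most rows, and KO OXA columns are paler. Gins2, Gins4, Pold2, Prim1, Rfc4 and Rpa3 have a fold change below 0 in WT.

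Set side by side, the OXA effects of the 2 genotypes share no library. Of the 31 genes that rose in WT, 28 had a fold change above 0 in KO and 29 had a smaller one in KO than in WT. Their median was 0.46 in KO and 1.58 in WT. Since these 31 were picked by their effect in WT, the pick itself favours a larger value there, and the counts are a description. The interaction and the comparison of genotypes under OXA reuse these libraries: of the same 31 genes, 14 had an interaction below 0 and 21 were lower in KO than in WT under OXA. Over the 46 genes the effects in KO and WT had Pearson r = 0.277 and Spearman rho = 0.229, across genes that are not independent and share the libraries of each genotype.

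Leaving out 1 library decided how many genes passed in KO. Without KO OXA replicate 4, 6 genes rose in KO (Ccne1, Orc6, Mcm4, Rpa3, Mcm2 and Gins1), and without any 1 of KO OXA replicate 2 and KO vehicle replicates 1, 3 and 4 none did. Without any 1 of WT vehicle replicates 2, 3 and 4 there were 2. DESeq2 on the recovered reads also called 6 (Ccne1, Uhrf1, Orc6, Mcm5, Mcm6 and Gins1). The calls of all genes in KO moved too, from 182 to 1027 over the fits without 1 library. DESeq2 also called more of all genes in KO than the main fit. The fall of Rpa1 in KO was lost without any 1 of KO OXA replicates 1, 2 and 3, KO vehicle replicates 1, 2 and 4, and WT OXA replicates 1 and 3. The fall of Gins4 in WT was lost without any 1 of KO OXA replicate 2, KO vehicle replicates 1, 2 and 3, WT OXA replicates 1, 2 and 3, and WT vehicle replicates 3 and 4. The Gins2 interaction kept its call only without any 1 of KO OXA replicates 2 and 4, WT OXA replicate 4 and WT vehicle replicates 2 and 3. In WT the number of genes that rose stayed between 26 and 32 over the 16 fits without 1 library. Calls of all genes there ran from 4477 to 6145. For the interaction the lower calls ran from 9 without WT OXA replicate 4 to 17 without WT vehicle replicate 4. Interaction calls of all genes, in either direction, ran from 2230 to 3465. With reads thinned to the shallowest library, at 5.61 M reads each, 27 genes rose in WT and the interaction was below 0 for 10.

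The rest of the pathway was read from wider lists, beside the 18% of all genes that rose and the 16% that fell in WT. In KO 1.81% of all genes rose and 0.0896% fell, and the interaction passed below 0 for 7.67% and above 0 for 10.1%. A list in which none passed in KO, here or among the marker lists below, is thus near the share of all genes. Of 30 other replication factors 18 rose and 1 fell in WT, none passed in KO, and 6 had an interaction below 0 and 1 above. Dbf4, the activating subunit of the Cdc7 kinase, had 0.32 ± 0.24 in KO and rose in WT by 2.03 ± 0.24 (limma adjusted p = 0.592 and 3.58e-06). Clspn, claspin of the replication checkpoint, had -0.25 ± 0.46 in KO and rose in WT by 2.94 ± 0.46 (limma adjusted p = 0.862 and 7.65e-05). Atad5, which unloads the clamp, had 0.76 ± 0.29 in KO and rose in WT by 2.45 ± 0.29 (limma adjusted p = 0.223 and 3.08e-06). Gmnn, geminin, the inhibitor of Cdt1, had 0.83 ± 0.26 in KO and rose in WT by 1.36 ± 0.26 (limma adjusted p = 0.128 and 0.00053).

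Of 24 other nucleotide supply enzymes tested 5 rose and 4 fell in WT, and 1 rose in KO, so their shares in WT, 20.8% and 16.7%, were near those of all genes. The gene called in KO was Samhd1, a dNTP hydrolase that lowers the dNTP pool and is abundant in myeloid cells. It had 1670.4, 1693, 777 and 1816 in KO OXA, 366, 402, 340.1 and 379 in KO vehicle, 3664, 3698, 4014 and 4681 in WT OXA and 662, 303, 327 and 439 in WT vehicle. It rose in KO by 1.93 ± 0.24 (limma adjusted p = 8.34e-05) and in WT by 3.27 ± 0.24 (limma adjusted p = 6.14e-09). Dck, the deoxycytidine salvage kinase, rose in WT by 1.61 ± 0.21 (limma adjusted p = 9.55e-06), and Shmt1, a cytosolic enzyme of folate metabolism, fell there by 1.43 ± 0.19 on the log2 scale (limma adjusted p = 1.04e-05). Neither passed in KO (0.42 ± 0.21 and 0.27 ± 0.19, limma adjusted p = 0.369 and 0.561).

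Of 11 other chromatin assembly genes 7 rose and 1 fell in WT and none passed in KO. Hells, a chromatin remodeller needed for DNA methylation, had 0.31 ± 0.38 in KO and rose in WT by 2.89 ± 0.38 (limma adjusted p = 0.765 and 1.08e-05). Supt16, of the FACT histone chaperone, and Nasp, a histone H1 and H3 chaperone, rose in WT by 1.20 ± 0.18 and 1.32 ± 0.21 (limma adjusted p = 5.94e-05 and 0.000101).

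Of 29 other G1/S regulators tested 11 rose and 7 fell in WT, none passed in KO, and the interaction was above 0 for 6 and below 0 for 7. Cdk6, a D-cyclin kinase, rose in WT by 1.90 ± 0.17 (limma adjusted p = 1.31e-07). Ccnd2, a D-type cyclin, and Cdkn1a, the Cdk inhibitor p21, fell there by 0.89 ± 0.14 and 1.30 ± 0.20 on the log2 scale (limma adjusted p = 9.37e-05 and 6.87e-05). The repressive factors E2f7 and E2f8, themselves E2F targets, rose in WT by 2.92 ± 0.77 and 0.74 ± 0.29 (limma adjusted p = 0.00662 and 0.0498), against -0.69 ± 0.77 and 0.23 ± 0.29 in KO (limma adjusted p = 0.745 and 0.775).

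Mitotic genes were set beside the replication genes because both belong to dividing cells. Of 12 mitotic markers 8 rose in WT and none passed in KO, and all 12 fold changes were below 0 in KO (median -0.22), where 38 of the 46 replication genes were above 0 (median 0.29). Mki67, the Ki-67 antigen, had 209, 647, 644 and 769 in KO OXA, 712, 800.0, 687 and 869.9 in KO vehicle, 1013, 1094, 1583 and 2099 in WT OXA and 602, 380.1, 571 and 294 in WT vehicle, apart in WT alone. It had -0.59 ± 0.33 in KO (limma adjusted p = 0.443) and rose in WT by 1.64 ± 0.33 (limma adjusted p = 0.000699). Birc5, Kif11 and Top2a, of the spindle and chromosomes, had -0.12, -0.02 and -0.07 in KO (limma adjusted p = 0.868, 0.981 and 0.922) and rose in WT by 1.82, 1.65 and 1.20 (limma adjusted p = 7.27e-06, 0.000195 and 0.00036). The difference between the 2 lists in KO was not tested.

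The normalized counts of all 47 genes summed to 5602 to 7011 in KO OXA, 4895 to 5292 in KO vehicle, 11512 to 15669 in WT OXA and 5154 to 5749.8 in WT vehicle. OXA and vehicle libraries did not overlap in either genotype, and the ratio of means was 1.24 in KO and 2.46 in WT. As RPM they overlapped in KO, at 400.6 to 562 in KO OXA and 395 to 423 in KO vehicle, and the ratios were 1.145 in KO and 3.07 in WT. Without Rrm2 the sums were 5261 to 6361 in KO OXA, 4545 to 4838 in KO vehicle, 7972 to 11231 in WT OXA and 4799.7 to 5469 in WT vehicle, apart in both genotypes with the authors' factors. As RPM these overlapped in KO as well, at 374 to 510.1 in KO OXA and 369 to 387 in KO vehicle.

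Markers of immune cells also differed between the groups, but not all in the way of these sums. The macrophage and dendritic cell sum averaged 15201 in KO OXA, with the highest library at 23596, and 14102 in WT OXA. Its medians ran the other way, at 13807 in KO OXA and 14296 in WT OXA, as did its mean RPM, at 1093 and 1370. In the same groups the replication sum averaged 6303 and 13383, or 462 and 1297 as RPM. All 9 T cell markers rose in WT and 1 of 9 in KO, and their summed level was 308 to 1505 in KO OXA, 59.1 to 510.0 in KO vehicle, 991 to 1446 in WT OXA and 143 to 269.9 in WT vehicle. Of 10 markers of macrophages and dendritic cells 7 rose in KO and 7 in WT, with sums of 9592 to 23596 in KO OXA, 3389 to 4873 in KO vehicle, 13433 to 14382 in WT OXA and 5599 to 8129 in WT vehicle. Of 5 B and plasma cell markers tested none passed in KO and 2 rose in WT, with sums of 46.5 to 1966 in KO OXA, 59.5 to 1559 in KO vehicle, 1087 to 1938 in WT OXA and 38.6 to 104 in WT vehicle. The upper ends of the B and plasma cell sums in KO were 1 library in each group, KO OXA replicate 2 and KO vehicle replicate 2, and the other KO libraries had 46.5 to 125 and 59.5 to 113. KO OXA replicate 2 also had the highest sum of the replication genes in KO (7011), while KO vehicle replicate 2 had the lowest (4895). The macrophage and dendritic cell sums did not overlap between OXA and vehicle in either genotype, while the T cell sums overlapped in KO.

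Among epithelial lists, 2 of 7 basal markers tested rose and 3 fell in WT, none passed in KO, and the basal marker Sox2 was at 0 in every library. Their sums were 40833 to 66436 in KO OXA, 41377 to 46106 in KO vehicle, 31713 to 48002 in WT OXA and 36075 to 63844 in WT vehicle. Krt14, a basal keratin, had 5701, 3014, 2799.9 and 2847 in KO OXA, 2481, 2172, 2011 and 2240.4 in KO vehicle, 12580.0, 10526, 10949 and 15788 in WT OXA and 2769, 2551, 3016 and 3766 in WT vehicle, and rose in WT (2.04 ± 0.20, limma adjusted p = 4.22e-07). Krt15 and Col17a1, also basal, fell in WT by 2.38 ± 0.28 and 1.79 ± 0.21 on the log2 scale (limma adjusted p = 3.11e-06 and 2.62e-06). Of 8 suprabasal differentiation markers 6 fell in WT and none passed in KO. Skeletal muscle markers, present because the mouse esophagus has striated muscle, had 3 of 6 lower in WT and none called in KO, and no fibroblast marker of 6 passed in either genotype. The part of any of these lists in the replication result was not tested.

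**Figure D4:**
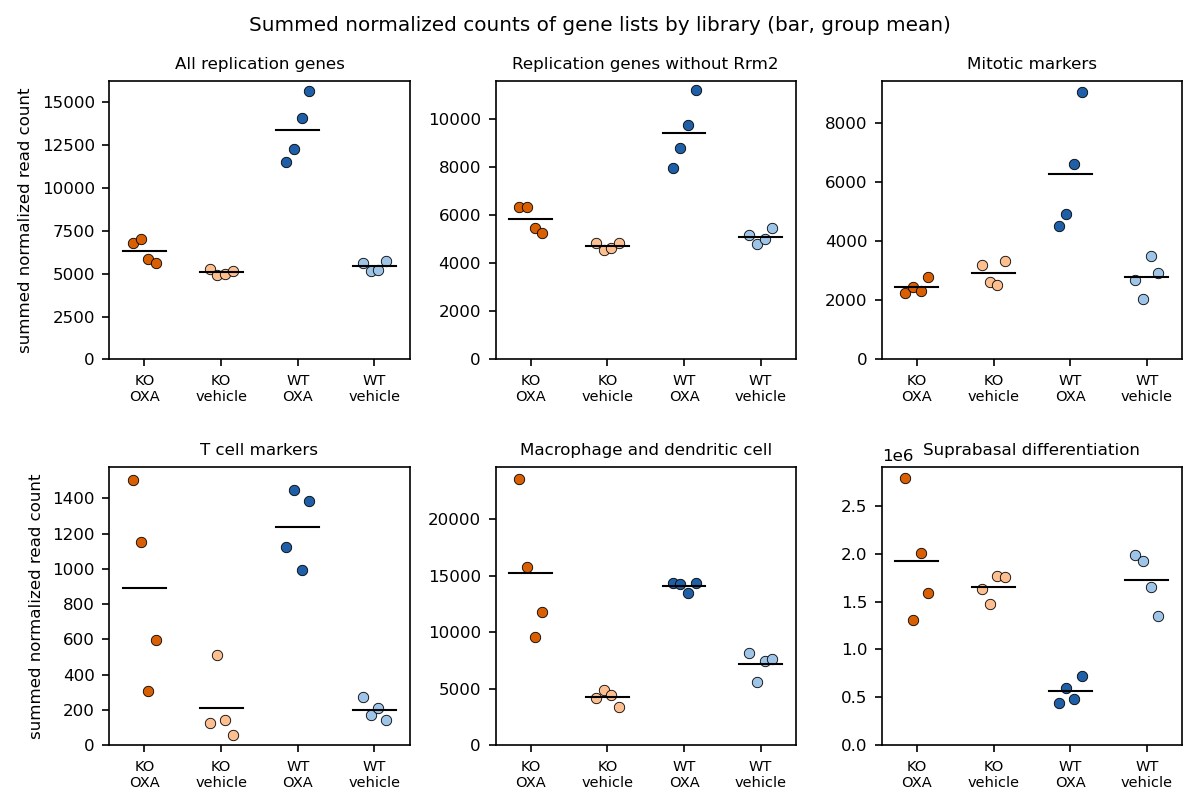
Summed normalized read counts per library of the replication genes, of the same without Rrm2, and of mitotic, T cell, macrophage and dendritic cell, and suprabasal lists, with a bar at the group mean (n = 4). Replication and mitotic sums are highest in WT OXA, myeloid sums are high in both OXA groups, and suprabasal sums are lowest in WT OXA.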

How the data were processed

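RNA of whole mouse esophagus was measured by CEL-Seq, which sequences tags from transcript 3′ ends, in 16 libraries of 4 groups, per the labels' protocols. Per the submitters' processing notes, the authors used FastQC 0.11.5, Trim Galore, cutadapt 1.10, TopHat2 2.1.0, Bowtie2 2.2.6, HTSeq 0.6.1 and DESeq2 1.28.0 with GRCm38. Not given in the sources used here are the annotation release, the strand setting and how molecular identifiers were treated. The deposited values are a non-negative signal, the read count of a gene divided by a factor specific to the library. All values (100%, tolerance 0.1 of a read) came out as whole reads, which gave the depth. Per-sample columns left unmapped numbered 0. Of 41411 genes 14402 were at 0 in every library.

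The main test was limma 3.58.1 (R 4.3.3) on log2(value + 1), with 1 mean per group over all 16 libraries and eBayes with trend, two-sided, on the 16748 genes that reached 5 in 4 or more libraries. Benjamini-Hochberg adjustment covered all of them, at a threshold of 0.05. All adjusted p-values come from this fit unless another tool is named. The log2(value + 1) scale understates changes of low genes. Alternatives were equal library totals, quantile normalization, pseudocounts of 0.5 and 5, no filter (27009 genes), a filter of 20 (13871 genes), only the groups compared, no trend, on recovered reads edgeR 4.0.16 with TMM and its quasi-likelihood test and DESeq2 1.42.0 with its Wald test, thinning to 5.61 M reads, and each library left out in turn. The procedure was tested on simulated data.

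The members and lists were chosen with earlier results of these data known. Within each role the rule named the member with the highest mean, those with the smallest and largest p for the OXA effect in WT, that with the smallest p for the interaction, and every member called in KO or under vehicle; for each wider pathway list it named up to 3 genes with the smallest p in WT, and always Mki67, Il13ra1, E2f7, E2f8 and Gmnn. Other members are given where their role is described. Gene overlaps were read from GENCODE M21 and promoter windows from RefSeq (GRCm38.p6).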

Additional observations from a re-analysis of the deposited data

Results flagged for a closer look

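The groups looked at were those of the named members and of the summed level of all members. In 96 such groups of 4 libraries, 1 library lay far from the other 3 in 3 groups, where chance gives about 1 in 20. Mcm3 was lowest in WT OXA replicate 1 (184.36), Prim2 was lowest in WT OXA replicate 2 (142.66), and Fen1 was highest in KO vehicle replicate 1 (123.79). For 16 members the OXA effect differed between KO and WT by the interaction test (limma, adjusted p of 0.05 or less). The effect in KO minus that in WT was below 0 for Rrm2 (-3.33), Mcm10 (-2.63), Mcm3 (-2.24), Pole2 (-2.07), Mcm4 (-1.97), Cdc6 (-1.97), Uhrf1 (-1.93), Lig1 (-1.76), Ccne2 (-1.64), Cdc45 (-1.64), Prim2 (-1.33), Fen1 (-1.18), Rrm1 (-1.11), Dnmt1 (-1.02) and Rpa1 (-0.86). It was above 0 for Gins2 (1.34). For Rpa1 this joins a fall in KO to a value in WT that did not pass. Values are log2 differences of the 2 effects.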

How the results depend on the processing

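No call of a replication gene changed direction under any alternative run. The calls of 18 of 26 members for KO against WT under OXA, 25 of 32 in WT, 7 of 16 for the interaction and 0 of 2 in KO were kept in all settings. Members that fell in WT numbered 0 with equal library totals, no filter, no trend and edgeR. Members that rose in KO numbered 0 with equal library totals, no filter and only the groups compared, 2 with quantile normalization, a filter of 20, no trend, edgeR and thinning, and 6 with DESeq2. The member that fell in KO was lost with only the groups compared and with thinning (0). Members with an interaction above 0 numbered 0 with equal library totals and no filter and 2 with DESeq2. Those below 0 numbered 27 with equal library totals, beside 3459 of all genes. Under OXA, 0 members were higher in KO with equal library totals, beside 1273 of all genes. All genes called in KO numbered 318 in the main analysis, 722 with DESeq2 and 199 with only the groups compared. For KO against WT under vehicle they numbered 10 in the main analysis, 46 with DESeq2, 5 with equal library totals, 5 with no filter and 3 without trend. The ratio of summed member levels in WT was 3.07 with equal library totals. The cause was not tested.

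Leaving out 1 library in turn gave 26 to 32 members higher and 0 to 1 lower in WT (4477 to 6145 genes), 0 to 6 higher and 0 to 1 lower in KO (182 to 1027 genes), and an interaction above 0 for 0 to 3 and below 0 for 9 to 17 (2230 to 3465 genes). KO against WT gave 0 members and 3 to 12 genes under vehicle, and 2 to 3 members higher and 18 to 26 lower under OXA (3623 to 5093 genes). The interaction uses all groups, so a fit to only the groups compared equals the main one and was not run. No paired analysis was possible because the labels give the groups no shared replicate numbers. Depth limits Orc1, Pole2 and Mcm10 most, whose vehicle libraries held few reads, and depth differed between the groups.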
